A study of Homo sapiens with 6 samples.

Results

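Eph receptors are receptor tyrosine kinases at the cell surface, and the ephrins are their ligands, which are themselves fixed to the membrane of a neighbouring cell. The genes described here are 10 members of this family, out of 61860 genes in the count table. They are the A class receptors EPHA2 and EPHA4, the B class receptors EPHB2, EPHB3 and EPHB4, the A class ligands EFNA1, EFNA4 and EFNA5, and the B class ligands EFNB1 and EFNB2. They were chosen by name from a family of 22 genes with their values in these libraries already known. The levels and changes of the 10 genes are therefore given as a description. How many of them the fit across all genes called is stated, and nothing is read from it. Of the other 12 family genes 7 were tested, and of 60 genes of the pathway 57 were tested. Those lists too were chosen with earlier results of these data known, so their p-values and counts of calls are also a description.

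RNA sequencing libraries came from A498, an established line of clear cell renal carcinoma cells, grown in MEM with fetal bovine serum. The 3 PTPRZ_Si libraries were labelled as a knockdown of PTPRZ1, a receptor tyrosine phosphatase, by siRNA. The 3 PTPRZ_nc libraries were labelled as the control of that knockdown, by plasmid. Both groups carry the same treatment label, a transfection or infection, with no time, dose or sequence of the siRNA or plasmid, so an effect of the knockdown and an effect of siRNA against plasmid cannot be told apart. All libraries come from this 1 line, and nothing in the labels says that the replicates were separate cultures, so the spread between them may be technical.

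Receptor and ligand meet where cells touch, and signals run both ways. Receptor clustering starts kinase ("forward") signalling in the cell that carries the receptor, and the bound ephrin starts "reverse" signalling in its own cell. A class ephrins are held by a lipid anchor and mostly bind A class receptors, whereas B class ephrins span the membrane, have a cytoplasmic tail and mostly bind B class receptors; EPHA4 is known for binding ligands of both classes. The pathway is known for cell repulsion and sorting, axon guidance and the growth of blood vessels, where ephrin B2 and EPHB4 mark arteries and veins. EPHA2 is widely expressed in epithelia and in carcinomas.

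The libraries held 14407846 to 21469746 counts in the Si group and 13726908 to 18609477 in the nc group, and 15476 genes had enough counts for testing. PTPRZ1 had a count of 0 in each of the 6 libraries, which allows up to 0.140 to 0.218 CPM per library (3 counts; CPM are counts scaled to library size), so the knockdown could not be checked from its own transcript. RNF26, the partner named in the series title, averaged 41.1 ± 3.55 CPM in Si and 49.0 ± 0.94 CPM in nc libraries (SD, n = 3 each), and its fitted log2 fold change was -0.25 (SE 0.07). Of 11 markers of kidney epithelium and renal carcinoma, 9 had enough counts for testing, and the summed level of the list was 3175 to 3306 CPM in Si and 3110 to 3159 CPM in nc libraries. Of the 9, 6 were called higher in Si (at an edgeR adjusted p of at most 0.05, as 14.0% of all tested genes were, with 13.4% lower), among them PAX8 (log2 fold change 0.83) and CDH6 (1.06), and 1 was called lower, VIM (-0.58); LRP2 and NDUFA4L2 were below the filter. The sum of this list was led by KRT8 (1315 CPM in Si and 1198 CPM in nc) and VIM (788 CPM in Si and 1181 CPM in nc). CA9 averaged 2.536 CPM in Si and 2.996 CPM in nc libraries, and was not called. CUBN averaged 1.307 CPM in Si and 0.734 CPM in nc libraries, and was not called. NDUFA4L2 had 9 counts in Si and 17 in nc libraries, and LRP2 had 3 in Si and 2 in nc. The sum therefore says little of these low markers. Markers of endothelium summed to 1.87 to 2.44 CPM in Si and 1.05 to 1.39 CPM in nc libraries, with CDH5 at 0. Markers of leukocytes summed to 0.912 to 1.32 CPM in Si and 0.533 to 0.877 CPM in nc libraries, with PTPRC and CD3E at 0. Markers of fibroblasts and mural cells summed to 3.28 to 4.42 CPM in Si and 3.58 to 6.95 CPM in nc libraries, with LUM at 0. The part of these markers in the results was not tested. Replicate 2 of the nc group stood apart from the rest of its group on the second principal component (18.4% of the variance), at 25.9 against -18.6 and -13.7 for nc replicates 1 and 3. These are bulk libraries, so more cells with a transcript and more transcript per cell cannot be told apart.

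Each member has at least 1 promoter window in RefSeq (GRCh38.p14), and the 10 genes had 12 windows of 300 bases, from 250 before to 50 after a transcript start. The windows of EPHA4 (with 2 start sites) and EFNB1, the 2 members called higher in Si libraries, and of EPHA2, the member with the lowest log2 fold change, are shown, read 5′ to 3′ on the gene's strand. Capitals mark matches, on either strand, to the motifs searched: TGANTCA (AP-1), GTGGGCG (EGR core), GGAATG (TEAD) and ACGTG or GCGTG (the core of the hypoxia element).
EPHA4 upstream start, chr2:221574153-221574452, minus strand: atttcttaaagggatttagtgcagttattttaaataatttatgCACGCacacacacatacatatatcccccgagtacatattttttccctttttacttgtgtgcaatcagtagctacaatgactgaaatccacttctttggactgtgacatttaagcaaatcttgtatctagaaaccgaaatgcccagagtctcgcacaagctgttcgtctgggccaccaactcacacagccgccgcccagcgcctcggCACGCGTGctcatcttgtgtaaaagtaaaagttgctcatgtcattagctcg
EPHA4 downstream start, chr2:221572255-221572554, minus strand: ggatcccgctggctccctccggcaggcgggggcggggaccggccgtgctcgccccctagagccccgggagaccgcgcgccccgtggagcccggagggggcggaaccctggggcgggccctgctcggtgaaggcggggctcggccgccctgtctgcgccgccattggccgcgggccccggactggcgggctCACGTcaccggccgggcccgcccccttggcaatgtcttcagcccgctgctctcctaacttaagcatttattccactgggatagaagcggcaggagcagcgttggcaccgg
EFNB1, chrX:68828771-68829070, plus strand: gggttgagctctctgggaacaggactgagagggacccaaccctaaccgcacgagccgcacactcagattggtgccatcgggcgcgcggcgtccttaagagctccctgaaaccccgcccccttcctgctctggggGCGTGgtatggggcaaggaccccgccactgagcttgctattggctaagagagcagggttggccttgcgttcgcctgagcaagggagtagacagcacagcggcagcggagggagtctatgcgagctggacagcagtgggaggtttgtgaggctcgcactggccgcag
EPHA2, chr1:16156020-16156319, minus strand: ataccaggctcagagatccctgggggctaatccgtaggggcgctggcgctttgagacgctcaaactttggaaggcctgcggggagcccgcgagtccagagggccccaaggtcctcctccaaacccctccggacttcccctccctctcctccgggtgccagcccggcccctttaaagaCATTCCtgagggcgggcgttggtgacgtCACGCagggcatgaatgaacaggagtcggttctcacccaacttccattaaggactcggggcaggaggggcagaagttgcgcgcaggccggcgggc
The 2 EPHA4 windows differ in base composition, with 43.0% G and C at the upstream start and 74.3% at the downstream start, and the 12 windows span 43.0% to 83.0% against a median of 58.7% over the 35116 windows of all genes. The hypoxia core was found in 11 of the 12 windows (9 of the 10 genes, all but EFNA4), and in 48.4% of all windows. This core holds the letters CG, and the share over all windows was not matched for G and C. The 2 windows of EPHB2 begin at bases 22710588 and 22710589, so they are nearly the same sequence counted again. Nothing is therefore read from the difference. Matches in the EPHA4 upstream window partly overlap each other around the start site, in the run CACGCGTG. The TEAD motif was found in 1 member window, that of EPHA2, and in 14% of all windows. The EGR core was found in 1 member window, that of EPHB3, and in 9.52% of all windows. The AP-1 motif was in none of the 12 member windows and in 7.71% of all windows. These are matches of letters and say nothing of whether a factor binds there.

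All 10 members passed the filter on low counts. In the fit across all genes (edgeR's quasi-likelihood test, called at a Benjamini-Hochberg adjusted p of at most 0.05), 2 members were called higher in Si and 3 lower, where 14.0% of all tested genes were called higher and 13.4% lower. Because the members were chosen with this contrast known, nothing is read from that count. The median log2 fold change was 0.02 over the 10 members and 0.001 over all tested genes. The groups did not overlap in CPM for 6 of the 10 members, against 40.8% of all tested genes.

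EPHA4, the A class receptor that binds ligands of both classes (chr2:221418027-221574202), had the widest change among the members. Its counts were 412, 695 and 614 in Si libraries 1 to 3, against 208, 187 and 231 in nc libraries 1 to 3. That is 28.7, 33.4 and 28.7 CPM in Si libraries, against 12.15, 13.7 and 12.3 CPM in nc libraries. Every Si library was above every nc library, and the gap between the groups was wider than the range within either. The means were 30.3 ± 2.68 CPM in Si and 12.7 ± 0.83 CPM in nc libraries (SD, n = 3 each), 2.39-fold apart (log2 fold change 1.26, SE 0.09). EPHA4 ranked 78 from the highest log2 fold change among the 15476 tested genes. On 4.67% of its exon length EPHA4 is overlapped by the opposite-strand gene ENSG00000272944, whose own counts were 6, 19 and 21 in Si and 2, 7 and 11 in nc libraries, and the counting did not tell the strands apart.

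EPHA2, the other A class receptor among the members (chr1:16124337-16156087), was lower in Si than in nc libraries. It had 235.8, 225.7 and 234.5 CPM in Si libraries, against 274.7, 283.1 and 258.7 CPM in nc libraries. The groups did not overlap, and the spread was wider in the nc group. The means were 232 ± 5.5 CPM in Si and 272 ± 12.4 CPM in nc libraries (SD, n = 3 each), and the fitted log2 fold change was -0.23 (SE 0.04). The A class receptors thus lay on opposite sides of the control level, the abundant EPHA2 lower and the scarcer EPHA4 higher.

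Among the B class receptors, EPHB4, the receptor known for ephrin B2 binding in veins (chr7:100802565-100827521), had 226.8, 208.4 and 225.9 CPM in Si libraries, against 244.2, 259.6 and 235.1 CPM in nc libraries. The groups did not overlap, with a log2 fold change of -0.16 (SE 0.05). The value was -0.12 without Si replicate 2, -0.12 without nc replicate 2 and -0.08 without both, the last a comparison chosen after seeing the data. EPHB4 was not called without Si replicate 2 or without both. EPHB2, a receptor known for axon guidance and for the sorting of cells in intestinal crypts (chr1:22710839-22921500), had 77.0, 79.97 and 81.4 CPM in Si libraries, against 96.96, 85.6 and 92.4 CPM in nc libraries. Here too every Si library was below every nc library, with the nearest pair being Si replicate 3 and nc replicate 2. The log2 fold change was -0.21 (SE 0.06), and -0.25 to -0.17 with each library left out in turn. EPHB2 was not called without Si replicate 1 or without nc replicate 1. EPHB3, which shares that role in the crypts with EPHB2 (chr3:184561784-184582409), had only 29, 44 and 48 counts in Si and 37, 19 and 45 counts in nc libraries. Its groups overlapped, at 2.13 ± 0.11 CPM in Si and 1.98 ± 0.53 CPM in nc libraries (SD, n = 3 each), and a difference was not detectable at this depth.

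Among the ligands, EFNB1, the X-linked B class ephrin whose tail binds partners inside the cell (chrX:68828997-68842147), was higher in Si than in nc libraries. It had 203, 193 and 197 CPM in Si libraries, against 139.4, 141.5 and 136.5 CPM in nc libraries. The lowest Si library was above the highest nc library, and replicates within each group lay close together. The means were 197.7 ± 5.24 CPM in Si and 139 ± 2.52 CPM in nc libraries (SD, n = 3 each), 1.42-fold apart (log2 fold change 0.51, SE 0.04). EFNB2, the other B class ephrin and the arterial ligand of EPHB4 (chr13:106489731-106535662), had 10.5, 11.3 and 12.5 CPM in Si libraries, against 12.5, 14.4 and 10.3 CPM in nc libraries. Its groups overlapped, and the log2 fold change was -0.10 (SE 0.13). On 26.2% of its exon length EFNB2 is overlapped by the opposite-strand gene ENSG00000284966, which had 13 counts in all 6 libraries together. Read pairs in the shared bases match both genes when strands are not told apart, so EFNB2 may be undercounted in every library.

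Of the 3 A class ephrins, EFNA1, the ligand best known for EPHA2 (chr1:155127460-155134857), had 20, 19 and 24 counts in Si libraries, against 13, 6 and 13 in nc libraries. In CPM this was 1.39, 0.912 and 1.12 in Si libraries, against 0.759, 0.439 and 0.694 in nc libraries. The groups did not overlap, and the log2 fold change was 0.81 with a wide error (SE 0.38) from these few counts. EFNA4 (chr1:155063731-155069553) had 11.5 ± 0.37 CPM in Si and 10.7 ± 2.26 CPM in nc libraries, and EFNA5 (chr5:107376889-107670895), a guidance cue for axons, had 35.5 ± 1.51 CPM in Si and 36.6 ± 3.38 CPM in nc libraries (SD, n = 3 each). For both the groups overlapped, with log2 fold changes of 0.09 (SE 0.14) and -0.04 (SE 0.08). EFNA4, EFNA3 and EFNA1 lie next to each other on chromosome 1, on the same strand, and the readthrough gene EFNA4-EFNA3 covers 15.0% of the exon length of EFNA4 and 44.7% of that of EFNA3. Read pairs in those shared bases match several genes, and the counting command set no option to keep them, so EFNA4 and EFNA3 may be undercounted in every library. The gene on the far side of EFNA4 from EFNA3, ADAM15, a membrane protease with a disintegrin domain, was named after its values were seen. It averaged 137 ± 1.56 CPM in Si and 208 ± 8.55 CPM in nc libraries (SD, n = 3 each; log2 fold change -0.60, edgeR adjusted p = 3.71e-08). On the other side of the cluster, beyond EFNA1, SLC50A1 (log2 fold change 0.17) and DPM3 (-0.13) were not called. They too were named after their values were seen.

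**Figure D1:**
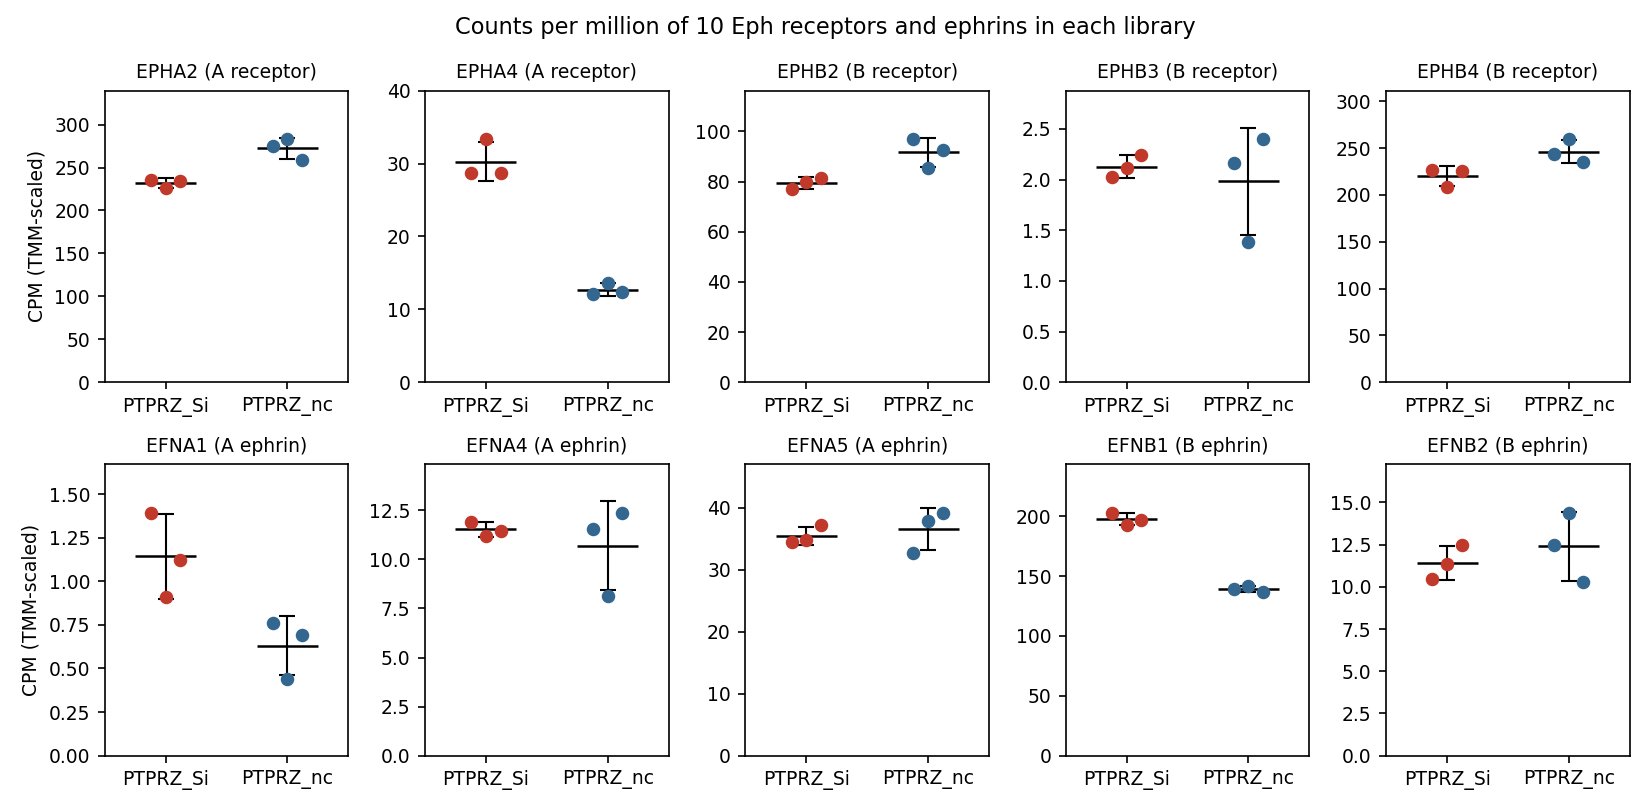
Level of each of the 10 members in each library, in TMM-scaled CPM on an axis from 0 (each gene has its own scale), with PTPRZ_Si left of PTPRZ_nc; points are libraries, lines are means and whiskers are SD (n = 3 each). EPHA4 (30.3 CPM in Si, 12.7 CPM in nc) and EFNB1 (197.7 CPM in Si, 139 CPM in nc) show the widest gaps for their spread, and the points of EPHB3, EFNA4, EFNA5 and EFNB2 overlap between groups.

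To compare levels between genes, CPM were divided by exon length in kilobases (RPKM). In Si libraries the order was EFNB1 (59.7 ± 1.58 RPKM), EPHA2 (55.8 ± 1.32), EPHB4 (34.2 ± 1.61), EFNA4 (9.12), EPHB2 (6.35), EFNA5 (6.22), EPHA4 (4.01), EFNB2 (2.28), EPHB3 (0.469) and EFNA1 (0.45 RPKM, SD over n = 3). The ranges of EPHB2 and EFNA5 overlapped there, as did those of EPHB3 and EFNA1, and the other neighbours in the order did not. In nc libraries the order opened with EPHA2 (65.4 ± 2.98 RPKM), EFNB1 (41.97 ± 0.761) and EPHB4 (38.3 ± 1.93 RPKM, SD over n = 3). EFNA4, EPHB2 and EFNA5 followed at 8.46, 7.32 and 6.42 RPKM with overlapping neighbours, and then EFNB2 (2.47), EPHA4 (1.68), EPHB3 (0.438) and EFNA1 (0.248 RPKM). So in RPKM 2 pairs changed places between the groups. EFNB1 stood above EPHA2 in Si libraries and below it in nc libraries. EPHA4 stood above EFNB2 in Si libraries and below it in nc libraries. Both exchanges depended on the division by length. In CPM, EPHA2 stood above EFNB1 in both groups (232 against 197.7 CPM in Si, 272 against 139 CPM in nc). EPHA4 and EFNB2 overlapped in CPM in nc libraries, with means of 12.7 and 12.4 CPM. In both groups the members with the highest levels per length were EPHA2, EPHB4 and EFNB1, and the next was EFNA4. The place of EFNA4 also depended on the division by length. In CPM it lay below EPHB2 and EFNA5 in both groups, at 11.5 against 79.5 and 35.5 CPM in Si libraries. In nc libraries these were 10.7 against 91.7 and 36.6 CPM.

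The makeup of each class followed from the levels in RPKM, taken over every gene of the class, members or not. EPHA2 held 79.6% ± 0.88 of the summed A receptor RPKM in Si and 88.3% ± 0.923 in nc libraries (SD, n = 3 each). EPHA4 held 5.72% ± 0.587 in Si and 2.27% ± 0.109 in nc libraries, and the non-member EPHA7 held 13.2% ± 0.27 in Si and 8.05% ± 0.787 in nc libraries. The ratio of EPHA4 to EPHA2 was 0.0720 ± 0.00816 in Si and 0.0257 ± 0.00119 in nc libraries. The summed A receptor level itself moved less, at 70.1 ± 0.953 RPKM in Si and 74.1 ± 2.6 RPKM in nc libraries. Among B receptors, EPHB4 held 75.6% in Si and 78.8% in nc libraries, and EPHB1 held 7.10% ± 0.801 in Si and 3.24% ± 0.412 in nc libraries (SD, n = 3 each).

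On the ligand side, EFNB1 made up most of what was measured. Summed B ephrin RPKM was 62.0 ± 1.47 in Si and 44.5 ± 1.16 in nc libraries, of which EFNB1 held 96.2% ± 0.482 in Si and 94.3% ± 0.75 in nc libraries (SD, n = 3 each). Summed A ephrin RPKM was 17.95 ± 0.392 in Si and 17.1 ± 1.88 in nc libraries, and its groups overlapped. Taken over all ephrins the sum was 79.97 ± 1.84 RPKM in Si and 61.6 ± 0.853 RPKM in nc libraries, whereas over all receptors it was 115 ± 2.81 RPKM in Si and 123 ± 3.98 RPKM in nc libraries. The ratio of EFNB1 to the main B receptor, EPHB4, was 1.74 ± 0.05 in Si and 1.098 ± 0.0356 in nc libraries, with no overlap of the groups. In RPKM the ligand sum was thus higher and the receptor sum lower in the Si group, with no overlap between groups in either sum. The gap in the receptor sum was narrow, with 117.4 RPKM in Si replicate 1 and 118.3 RPKM in nc replicate 3. It depended on the division by length, and the receptor groups overlapped when CPM were summed instead.

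**Figure D2:**
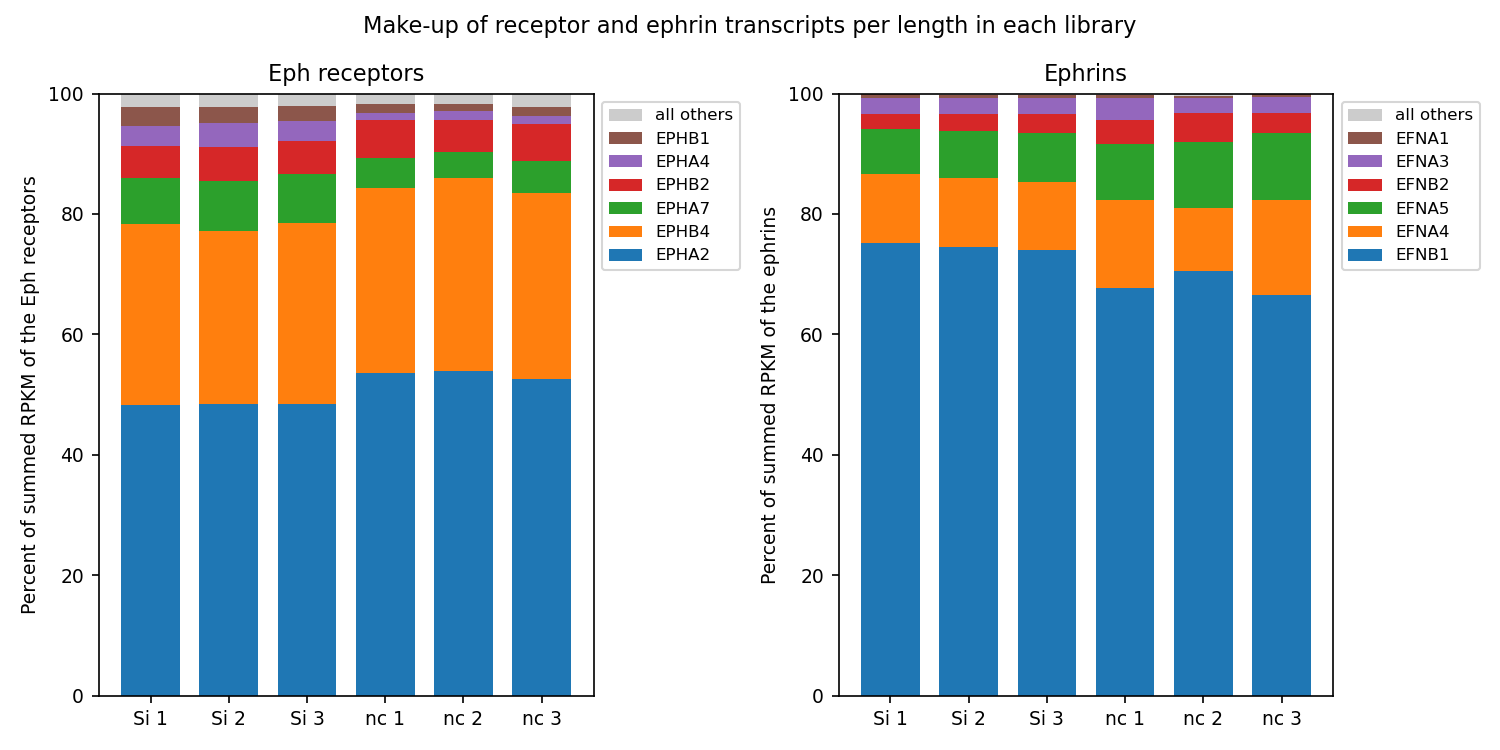
Share of each gene in the summed RPKM of all Eph receptors (left) and of all ephrins (right), in percent, with 1 stacked bar a library, the 3 PTPRZ_Si libraries left of the 3 PTPRZ_nc libraries. EPHA2 takes 48.4% of the receptors in Si and 53.4% in nc libraries, and EFNB1 takes 74.6% of the ephrins in Si and 68.2% in nc libraries.

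The choice of members left out 12 family genes, of which 7 passed the filter on low counts. Of these, 2 were called higher in Si, none lower and 5 were not called, where 14.0% of all tested genes were called higher and 13.4% lower. The median log2 fold change was 0.20, against 0.001 over all tested genes, and none was lower by DESeq2, by limma-voom or at an unadjusted edgeR p under 0.05 either. EPHB1, a B class receptor that guides axons (chr3:134597801-135260467), had 26.0, 20.8 and 20.4 CPM in Si libraries, against 12.1, 9.65 and 11.1 CPM in nc libraries. The groups did not overlap, with a 2.02-fold difference (log2 fold change 1.02, SE 0.12, edgeR adjusted p = 4.02e-06). EPHA7, an A class receptor of the nervous system that is also made in epithelia (chr6:93240020-93419547), had 67.8, 68.9 and 70.3 CPM in Si libraries, against 45.5, 41.0 and 46.5 CPM in nc libraries. It rose 1.55-fold (log2 fold change 0.64, SE 0.06, edgeR adjusted p = 6.75e-07), with every Si library above every nc library.

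The other 5 tested family genes were low in every library. Their log2 fold changes were 0.20 for EFNA3 (227 counts in Si and 174 in nc libraries), 0.02 for EPHB6 (286 in Si and 253 in nc), 0.23 for EPHA6 (263 in Si and 194 in nc), 0.10 for EPHA3 (57 in Si and 47 in nc) and -0.16 for EPHA5 (54 in each group). A further 5 were below the filter, namely EPHA1 (27 counts in Si and 28 in nc), EFNB3 (18 in Si and 9 in nc), EFNA2 (3 in Si and 5 in nc), and EPHA8 and EPHA10 with 0 counts in all 6 libraries. Over the whole family, 17 of 22 genes passed the filter.

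**Figure D3:**
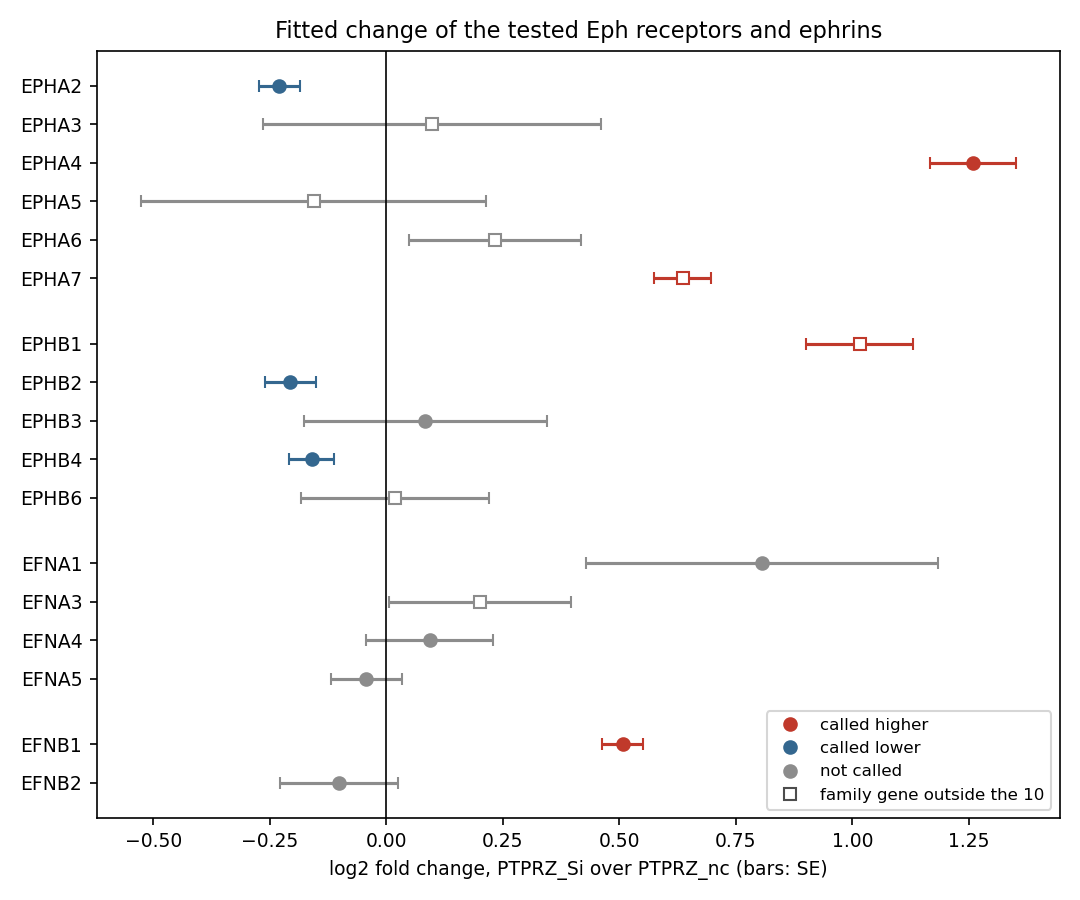
Fitted log2 fold change of PTPRZ_Si over PTPRZ_nc (horizontal axis, bars of 1 SE) for the 17 tested family genes; filled circles are the 10 members, open squares are other family genes, red is called higher, blue called lower and grey not called. EPHA4 (1.26) and EPHB1 (1.02) lie farthest to the right, EPHA2 (-0.23) is the lowest called gene, and EFNA1, EPHA3 and EPHA5, with few counts, have the longest bars.

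Outside the family, 60 genes that carry or limit Eph and ephrin signals were grouped in 5 lists, of which 57 genes passed the filter. Of these, 12 were called higher and 13 lower in Si libraries, and the median log2 fold change was -0.12, against 0.001 over all tested genes, of which 14.0% were called higher and 13.4% lower. Adaptors and kinases of forward signalling moved in both directions, with 2 of 17 higher and 3 lower (median -0.09). SRC, a cytoplasmic tyrosine kinase that acts next to active Eph receptors and on the tails of B ephrins, had 705, 696 and 727 CPM in Si libraries, against 534, 545 and 534 CPM in nc libraries (log2 fold change 0.40, edgeR adjusted p = 2.7e-07). Every Si library lay well above every nc library. PIK3R1, the regulatory subunit of PI 3-kinase, rose to 37.5 ± 1.67 CPM in Si, against 31.2 ± 2.06 CPM in nc libraries (log2 fold change 0.26, edgeR adjusted p = 0.014). Without Si replicate 1 the log2 fold change was 0.22 and the gene was not called (edgeR adjusted p = 0.0727). ABL1, a tyrosine kinase that binds Eph receptors, fell to 212 ± 4.7 CPM in Si, against 268 ± 5.15 CPM in nc libraries (log2 fold change -0.34, edgeR adjusted p = 8.7e-06). RASA1, the Ras inhibitor that docks on phosphorylated EPHB2, fell to 57.1 ± 4.52 CPM in Si, against 72.8 ± 3.27 CPM in nc libraries (log2 fold change -0.35, edgeR adjusted p = 0.000607). The third lower gene, ANKS1A, an adaptor of EPHA receptors, was named after its values were seen to complete the count (-0.20). The abundant adaptors SHC1 (455 CPM in Si and 449.9 CPM in nc) and GRB2 (214 CPM in Si and 207 CPM in nc) were not called.

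Of 15 tested genes that turn receptor signals into changes of the actin skeleton, 3 were higher and 4 lower (median -0.16). Over all tested genes, 14.0% were called higher and 13.4% lower. VAV3 and VAV2, exchange factors of small GTPases that are recruited by active Eph receptors, both rose. VAV3 had 41.5, 41.2 and 37.9 CPM in Si libraries, against 24.8, 25.7 and 24.3 CPM in nc libraries (log2 fold change 0.69, edgeR adjusted p = 1.48e-06). VAV2 averaged 135 ± 4.06 CPM in Si and 101 ± 2.67 CPM in nc libraries (log2 fold change 0.42, edgeR adjusted p = 4.65e-06). LIMK1, the kinase that inactivates cofilin, fell to 250.3 ± 5.44 CPM in Si, against 316 ± 11.2 CPM in nc libraries (log2 fold change -0.33, edgeR adjusted p = 1.22e-05). The GTPase RHOA itself averaged 322 ± 3.86 CPM in Si and 362 ± 21.1 CPM in nc libraries (log2 fold change -0.17, edgeR adjusted p = 0.00855). Cofilin, CFL1 (-0.04), and ROCK2, a kinase driven by RHOA (-0.01), were not called. The calls not yet named, chosen after their values were seen to complete the count, were ITSN1 (0.21), SIPA1L1 (-0.34) and RAC1 (-0.14).

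Of 7 phosphatases that act on Eph signalling, 3 were higher, 1 was lower and 3 were not called (median 0.03). Among all tested genes, 14.0% were called higher and 13.4% lower. PTPN1, a tyrosine phosphatase known to dephosphorylate EPHA receptors, rose to 112 ± 1.71 CPM in Si, against 89.7 ± 7.04 CPM in nc libraries (log2 fold change 0.32, edgeR adjusted p = 0.00044). PTPN11 averaged 225 ± 5.56 CPM in Si and 193 ± 6.09 CPM in nc libraries (log2 fold change 0.22, edgeR adjusted p = 0.000937). PTPRF, a receptor phosphatase of the LAR family that acts on EPHA2, fell to 319 ± 8.23 CPM in Si, against 391.7 ± 14.5 CPM in nc libraries (log2 fold change -0.30, edgeR adjusted p = 3.98e-05). INPPL1, a lipid phosphatase that binds EPHA2, was called higher at a log2 fold change of 0.14 (edgeR adjusted p = 0.0197), but not without Si replicate 1, Si replicate 3 or nc replicate 3 (log2 fold change 0.13 in each; adjusted p = 0.0967, 0.0886 and 0.055). PTPRJ (0.03) and ACP1 (-0.12) were not called, and ACP1 was called without nc replicate 2 (adjusted p = 0.00853).

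Of 8 tested partners of B ephrins in reverse signalling, 4 were higher and 1 was lower (median 0.15). Among all tested genes, 14.0% were called higher and 13.4% lower, and a link of these partners to the level of EFNB1 was not tested. RGS3, which binds the ephrin B tail through a PDZ domain and limits G proteins, rose to 149.6 ± 2.32 CPM in Si, against 123 ± 5.59 CPM in nc libraries (log2 fold change 0.28, edgeR adjusted p = 0.000262). DVL2, a scaffold of Wnt signalling that also acts with ephrin B1, averaged 92.1 ± 1.2 CPM in Si and 75.7 ± 5.48 CPM in nc libraries (log2 fold change 0.28, edgeR adjusted p = 0.00121). PARD6B, a polarity protein, averaged 16.5 ± 0.587 CPM in Si and 11.4 ± 1.51 CPM in nc libraries (log2 fold change 0.53, edgeR adjusted p = 0.0015). The PDZ scaffold GRIP1 was the remaining higher gene (0.45), named after its values were seen. STAT3, a transcription factor recruited by ephrin B1, fell to 361 ± 6.79 CPM in Si, against 446 ± 15.8 CPM in nc libraries (log2 fold change -0.31, edgeR adjusted p = 1.9e-05). PICK1 (0.02) and TJP1 (-0.47, SE 0.23) were not called, and TJP1 was at -0.23 without nc replicate 2.

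Of 10 proteases and subunits of protease complexes that cut receptors and ephrins, none was higher and 4 were lower (median -0.16). Over all tested genes, 14.0% were called higher and 13.4% lower. APH1B, NCSTN and APH1A, among the lower, are subunits of gamma-secretase, the complex that cuts membrane stubs after shedding. Its subunits PSENEN (log2 fold change 0.12, groups overlapping) and PSEN2 (-0.12, groups overlapping) were not called. Both were named after their values were seen. At an unadjusted edgeR p under 0.05, 2 genes of the list were higher and 5 lower, and DESeq2 and limma-voom also called none higher. APH1B had 22.3, 19.6 and 19.0 CPM in Si libraries, against 31.8, 33.9 and 33.7 CPM in nc libraries (log2 fold change -0.71, edgeR adjusted p = 3.91e-06). The groups were far apart, with no nc library under 31.8 CPM. NCSTN fell to 143 ± 2.87 CPM in Si, against 186 ± 18.8 CPM in nc libraries (log2 fold change -0.38, edgeR adjusted p = 0.000127). APH1A fell to 138 ± 3.87 CPM in Si, against 163.5 ± 6.1 CPM in nc libraries (log2 fold change -0.24, edgeR adjusted p = 0.000787). The shedding proteases MMP14 (-0.08) and ADAM10 (0.10), which is known to cleave ephrins, were not called.

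**Figure D4:**
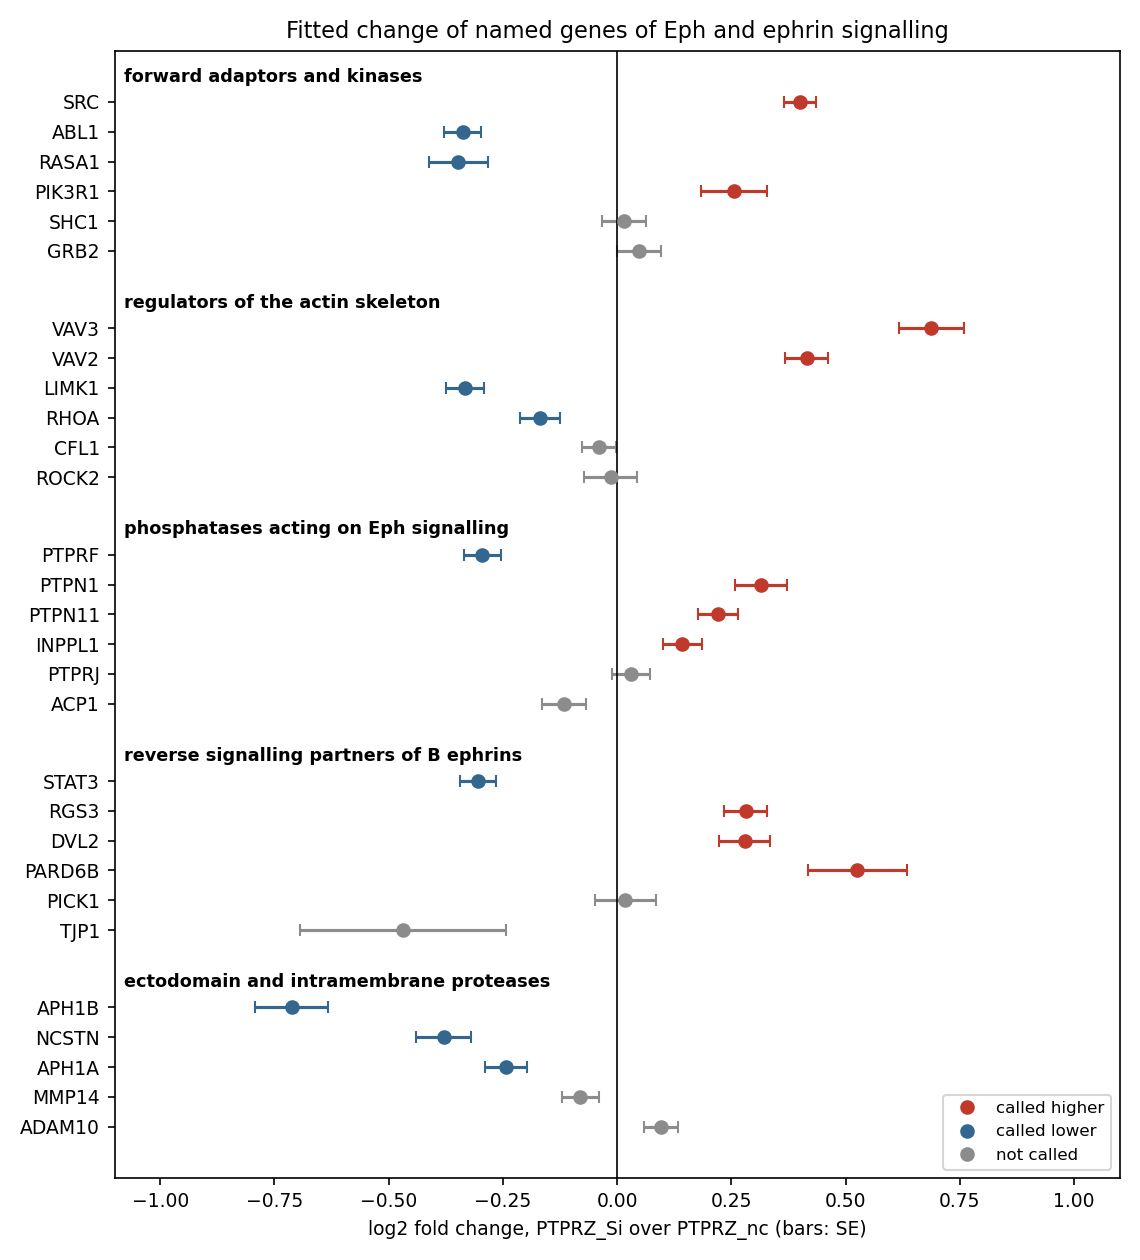
Fitted log2 fold change of PTPRZ_Si over PTPRZ_nc (horizontal axis, bars of 1 SE) for the named genes of the 5 pathway lists, up to 4 called and 2 uncalled genes a list; red is called higher, blue called lower and grey not called. VAV3 (0.69), PARD6B (0.53) and SRC (0.40) lie to the right, APH1B (-0.71) lies to the left, and the called gamma-secretase subunits shown lie below 0.

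The genes whose pattern over the 6 libraries lay nearest to a member were sought among the 11018 genes that averaged 5 CPM or more, by the root mean square distance of log2(CPM + 0.5) centred on each gene's mean. For EPHA4, the member with the largest fold change, they were ZNF114 (distance 0.0765), GDA (0.0826), MAF (0.089), LGR4 (0.1) and IGFL2-AS1 (0.111), whose log2 fold changes ran from 1.12 to 1.21. For EPHA2, the member with the lowest, they were DNAAF10 (0.0166), RACGAP1 (0.0168), NUMA1 (0.0177), DSP (0.0188) and ANKFY1 (0.0193), whose log2 fold changes ran from -0.24 to -0.22. The distances describe likeness over these 6 libraries alone. No other member was among those 10 genes.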

How the data were processed

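Counts are whole numbers of read pairs per gene, deposited by the authors without normalization; featureCounts 2.0.1 counted exons per gene (Ensembl GRCh38 release 107), per the file headers. No strand option was set there, although the kit was directional, per the labels' protocols. The submitters' processing notes name hg38. The version of the aligner and any pooling of cultures were not stated. Counts were fitted with edgeR 4.0.16 in R 4.3.3 (filterByExpr by group, TMM, glmQLFit and glmQLFTest, Benjamini-Hochberg over 15476 tested genes, which hold 99.82% of counts; threshold 0.05 on the adjusted p); the biological coefficient of variation was 5.53%. CPM use TMM library sizes. The count table used here holds no gene lengths, so RPKM use exon lengths of GENCODE 29, which also gave gene coordinates (GRCh38) and overlaps. Named genes are all family genes, up to 4 called genes with the smallest p and up to 2 uncalled genes with the highest CPM in each list, and the 5 nearest patterns to 2 members; PTPRZ1 and RNF26 are checks; 1 gene that this rule names is not reported here. The members and lists were chosen with earlier results of these data known. Of 61860 identifiers, 2 had no symbol. The fit was tested on simulated counts first. Alternatives were DESeq2 1.42.0, limma 3.58.1 (voom), other scaling and filters, a replicate block and leaving out libraries. P-values measure the spread between these libraries. Protein sequences were not used here.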

Additional observations from a re-analysis of the deposited data

How the results depend on the processing

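Results were recomputed with RLE scaling, DESeq2, limma-voom, no filter, a mean of at least 5 CPM, a replicate block, each library left out in turn, and without replicate 2 of both groups (chosen after seeing the data). Leaving out 1 library gave 3182 to 4425 called genes (main 4243), 4 to 5 called members and 21 to 27 called pathway genes (main 25); without replicate 2 of both groups 28 pathway genes and 4 members were called. EFNA1 and EPHB3 were not tested at a mean of at least 5 CPM. Shares by CPM in place of RPKM put EPHA4 at 8.95% of A receptors in Si and 3.79% in nc libraries, and EFNB1 at 94.4% of B ephrins in Si and 91.7% in nc libraries. Genes that were not called changed sign: over the libraries left out in turn EPHB3 ran from -0.100 to 0.244, EFNA4 from -0.061 to 0.211, EFNA5 from -0.118 to 0.012, EFNB2 from -0.226 to 0.011, EPHA3 from -0.148 to 0.289, EPHA5 from -0.477 to 0.024, EPHB6 from -0.197 to 0.189, SHC1 from -0.041 to 0.067, ROCK2 from -0.052 to 0.039 and PICK1 from -0.021 to 0.037 (log2 fold change). Without replicate 2 of both groups EPHB3 was at -0.090, EFNA4 at -0.038, EFNB2 at 0.025, EPHA3 at -0.277, EPHA5 at 0.015 and SHC1 at -0.008, and EPHB6 was at -0.035 in limma-voom; the cause was not tested. TJP1 was called with no filter (edgeR adjusted p = 0.0241) and without nc replicate 3 (0.00687), but not without nc replicate 2 (log2 fold change -0.233, adjusted p = 0.446) or without replicate 2 of both groups (-0.085, adjusted p = 0.808). ADAM10 was called at a mean of at least 5 CPM (edgeR adjusted p = 0.0354), and ACP1 (0.0167) and GRB2 (0.0427) without replicate 2 of both groups. Depth limits the genes with few counts, such as EFNA1, EPHA3, EPHA5 and EPHB3.

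The replicate numbers did not pair the libraries by the labels: libraries of the same number had correlations of their deviations from the group means of 0.0271, 0.0333 and 0.0226, although each library correlated best with its own number, a hint from the data and not the design. With the replicate block 4101 genes (2123 higher and 1978 lower), 5 members and 24 pathway genes were called.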
